A study of Mus musculus with 5 samples.

Results

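The transcripts described here are those of 7 gene families that carry amino acids and related solutes across membranes: Slc1a, Slc3a, Slc6a, Slc7a, Slc36a, Slc38a and Slc43a. Members were all mouse genes with a symbol in those families to which the accession of an array probe, without its version, could be matched. This gave 62 genes with 77 probes, of 19752 genes named on the array. One of them, Slc7a6os, only shares its name with the neighbouring carrier gene Slc7a6 and is not itself a carrier. Liver RNA came from Fra-1hep mice on the C57BL/6J background, in which the AP-1 subunit Fra-1 is overexpressed in hepatocytes, and from C57BL/6J wt controls. All mice were 26 to 28 weeks old and had been fed, from 4 weeks of age, a high-fat diet that supplied 45% of its energy as fat. RNA of 4 single Fra-1hep mice in Cy5 was set against 1 Cy3 pool of 5 control mice, with 1 array per mouse. On the fifth array the dyes were exchanged, with a Fra-1hep pool in Cy3 and the control pool in Cy5. The promoter of the transgene and the mice behind the Fra-1hep pool are not given in the sources used here. Pooled controls leave the spread among control mice unmeasured.

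Amino acid carriers set which amino acids reach the urea cycle, gluconeogenesis and protein synthesis in hepatocytes. Some work alone, such as the cationic carriers of the Slc7a family and the sodium-coupled carriers of Slc38a. Others are pairs of a heavy chain (Slc3a1 or Slc3a2), which brings the complex to the membrane, and a light chain of the Slc7a family, which forms the transport path. Several families also carry neurotransmitters and osmolytes: Slc1a holds the glutamate carriers, and Slc6a the carriers of glycine, GABA, taurine, betaine and creatine.

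Between 47.2% and 54.7% of spots were well above background in Cy5, and between 47.7% and 61.5% in Cy3. Fosl1, the gene of Fra-1, had 1 probe. Its signal was well above background for Fra-1hep RNA on 0 arrays and for control RNA on 1, and its log2 ratios were -0.37, -0.23, 0.11 and 0.12 in mice 1 to 4, with -0.09 on the swapped array. This probe did not check the labels. Markers of liver were present: all 12 hepatocyte markers (Alb, Ttr, Apoa1, Tat and others) were above background. Of them 1 was higher, 2 were lower and 9 did not pass, where 30.5% of all named genes passed. Their median log2 change was 0.02. The higher marker, Serpina1a, had 0.62 to 0.93 in the mice and -0.22 on the swapped array.

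Promoter windows from RefSeq (GRCm38.p6), 250 bases before to 50 after a transcription start, could be matched for 44 of the 62 genes. They are shown for members on which the results turn: Slc3a1, which had the largest change; Slc43a1 and Slc43a2, from the family in which every member was lower; and the neighbours Slc6a13 and Slc6a12, which moved in opposite directions. Capitals mark the AP-1 motif TGANTCA, the only motif found in these windows of the 3 searched on both strands. The windows lie at chr17:85028097-85028396 (Slc3a1), chr2:84840073-84840372 (Slc43a1), chr11:75531444-75531743 (Slc43a2), chr6:121300038-121300337 (Slc6a13) and chr6:121342324-121342623 (Slc6a12), all on the plus strand. For Slc43a2, Slc6a13 and Slc6a12, which have several starts, the first is shown.
Slc3a1: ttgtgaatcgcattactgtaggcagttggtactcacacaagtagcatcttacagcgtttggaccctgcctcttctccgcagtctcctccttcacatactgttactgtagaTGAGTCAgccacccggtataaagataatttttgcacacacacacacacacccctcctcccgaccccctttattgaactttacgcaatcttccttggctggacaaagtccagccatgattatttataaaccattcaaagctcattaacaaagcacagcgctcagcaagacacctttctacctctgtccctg
Slc43a1: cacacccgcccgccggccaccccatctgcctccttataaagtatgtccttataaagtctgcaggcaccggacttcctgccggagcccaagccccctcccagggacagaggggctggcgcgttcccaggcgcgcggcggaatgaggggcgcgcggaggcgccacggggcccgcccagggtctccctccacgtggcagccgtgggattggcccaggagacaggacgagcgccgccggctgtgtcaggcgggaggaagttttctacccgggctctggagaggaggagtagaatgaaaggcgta
Slc43a2: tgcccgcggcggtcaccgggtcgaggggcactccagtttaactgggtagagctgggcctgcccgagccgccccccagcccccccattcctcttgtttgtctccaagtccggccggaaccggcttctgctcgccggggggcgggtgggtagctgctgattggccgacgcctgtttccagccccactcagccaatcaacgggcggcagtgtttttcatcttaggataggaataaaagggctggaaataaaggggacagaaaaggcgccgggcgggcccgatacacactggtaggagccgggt
Slc6a13: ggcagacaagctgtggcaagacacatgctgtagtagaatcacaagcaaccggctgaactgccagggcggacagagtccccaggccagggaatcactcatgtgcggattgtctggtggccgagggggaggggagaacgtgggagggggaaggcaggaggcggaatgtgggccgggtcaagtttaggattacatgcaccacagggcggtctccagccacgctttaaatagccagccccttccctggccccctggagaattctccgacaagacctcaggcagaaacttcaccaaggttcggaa
Slc6a12: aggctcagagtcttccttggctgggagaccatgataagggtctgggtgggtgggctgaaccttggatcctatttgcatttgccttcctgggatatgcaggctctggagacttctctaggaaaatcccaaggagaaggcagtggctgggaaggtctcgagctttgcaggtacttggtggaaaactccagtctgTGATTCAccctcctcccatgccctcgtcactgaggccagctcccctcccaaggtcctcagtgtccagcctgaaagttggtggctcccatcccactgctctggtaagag

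In Slc3a1 the motif began at position -140 relative to the start, and in the first Slc6a12 window at position -58. The AP-1 motif was present for 7 of the 44 members with a window (Slc38a10, Slc38a7, Slc3a1, Slc6a12, Slc6a14, Slc6a17 and Slc7a1), and for 8.97% of 27025 genes with windows. Of the 9 lower members with a window, 2 held it (Slc3a1 and Slc7a1). The amino acid response element core TGATGNAA was found for 4 members (Slc1a4, Slc6a21, Slc7a11 and Slc7a7), against 4.51% of all genes. The cAMP response element TGACGTCA was found for 1 (Slc38a6), against 2.03%. The 3 motifs overlapped at no place in the printed windows, and a match is a run of letters, not a measured binding site.

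A gene was called expressed in liver where, on 3 or more of the 5 arrays, the Fra-1hep or the control signal of its probe was well above background. By this measure 35 of the 62 genes (56.5%) were expressed, and 31 of them were above background in both channels of all 5 arrays. Families differed in how many of their genes the liver expressed. All 3 Slc43a genes and both Slc3a genes were expressed, as were 8 of 11 Slc38a genes and 5 of 7 Slc1a genes. Expression was found for 2 of 4 Slc36a genes, 8 of 16 Slc7a genes and 7 of 19 Slc6a genes. The 12 Slc6a genes below that limit included carriers known from neurons and from gut and kidney epithelium: those of dopamine (Slc6a3), serotonin (Slc6a4), noradrenaline (Slc6a2) and GABA (Slc6a11), and the epithelial neutral amino acid carriers Slc6a18 and Slc6a19. Among Slc7a genes, the cystine carrier Slc7a11 and the Slc3a1 partner Slc7a9 were above background in neither channel of any array. Per array, between 33 and 37 of the 62 genes had a probe above background in the Fra-1hep channel, and between 32 and 39 in the control channel, so the set of expressed genes was of like size in both.

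**Figure D1:**
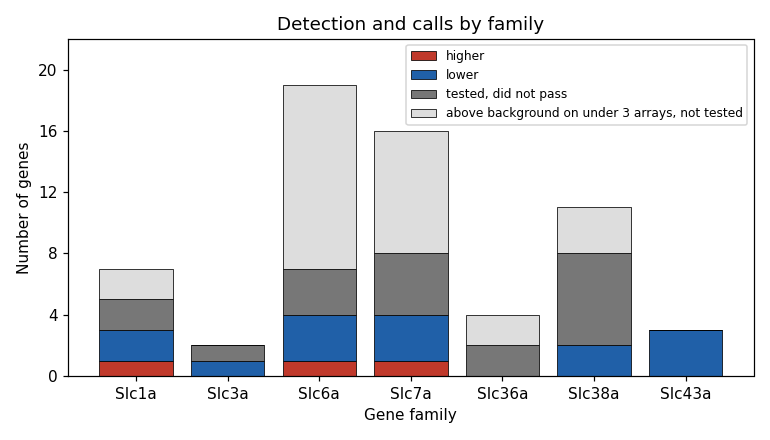
Number of genes in each family, stacked by outcome: higher, lower or tested without passing in Fra-1hep against control liver, or above background on under 3 arrays and therefore not tested. Slc43a is the family in which all 3 genes were lower, and most Slc6a genes (12 of 19) were not tested.

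Changes are given as log2 of Fra-1hep over control with a moderated standard error, from a limma fit with a genotype and a dye term. That value is the midpoint of the mean of the 4 mice and the swapped pool, so the swapped array weighs as much as the mice together. The fit follows that 1 array exactly, so its own error was not measured. Standard errors and p-values rest on the spread among the 4 mice, moderated over all features, and take the swapped array to vary alike. Adjusted p-values are Benjamini-Hochberg over 21494 features, with a threshold of 0.05. Of the 35 tested members, 14 were lower (40.0%), 3 were higher (8.57%) and 18 did not pass. Over all 13524 named genes tested, 18.5% were called lower and 12.0% higher, together 30.5%; of all 21494 features 26.6% were called. An alternative added a spread for the 5 pooled control mice. It was assumed from the residual spread of the fit, since that among control mice was unmeasured. Under it 14 of the members stayed called, where named genes were lower in 9.91% and higher in 6.03%. Without the swapped array 17 members were called, 16 of them the same, where named genes were lower in 23.8% and higher in 16.7%. The members' median was -0.17, against -0.02 for all named genes, and their median absolute change was 0.33 against 0.14. Changes of at least 0.5 that passed numbered 8 falls and 2 rises, where named genes as a whole had such falls in 6.17% and such rises in 3.10%. The 4 members whose probe was below background in some channel, among them Slc1a6, Slc1a7 and Slc7a3, did not pass.

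**Figure D2:**
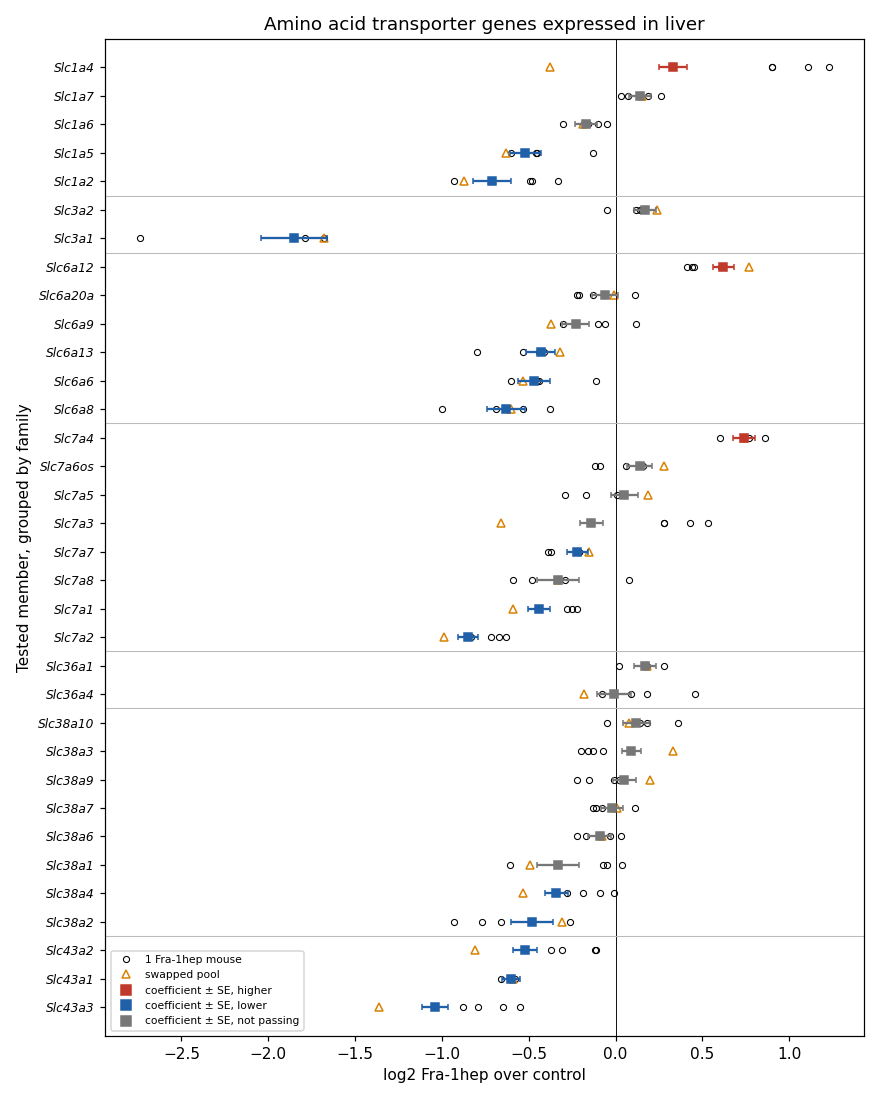
Log2 Fra-1hep over control for the tested members reported by name, grouped by family. Open circles are the 4 mice, triangles the swapped pool, and squares the fitted coefficient with its standard error, coloured by call; Slc3a1 lies farthest left at -1.85 and Slc7a4 farthest right among the coefficients at 0.74.

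By family, the lowest medians were those of Slc3a (-0.84, over 2 genes that differed widely) and Slc43a (-0.60, over 3 genes). Slc6a (-0.23, 7 genes), Slc7a (-0.18, 8 genes) and Slc1a (-0.17, 5 genes) had medians below 0 on all 5 arrays, and each held 1 higher member. Slc38a (-0.05, 8 genes) and Slc36a (0.08, 2 genes) lay closest to 0, though Slc38a too had medians below 0 on all 5 arrays (-0.15 to -0.03). Slc43a was below 0 on every array by a wide margin, with medians of -0.55, -0.61, -0.61 and -0.66 in mice 1 to 4, with -0.81 on the swapped array. Families are small and their genes are not replicates, so the medians are descriptions without a test, and they moved with the processing: without background offset Slc1a was at -0.47 and Slc43a at -0.92, and among members above background in both channels of all arrays Slc1a was at -0.52.

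**Figure D3:**
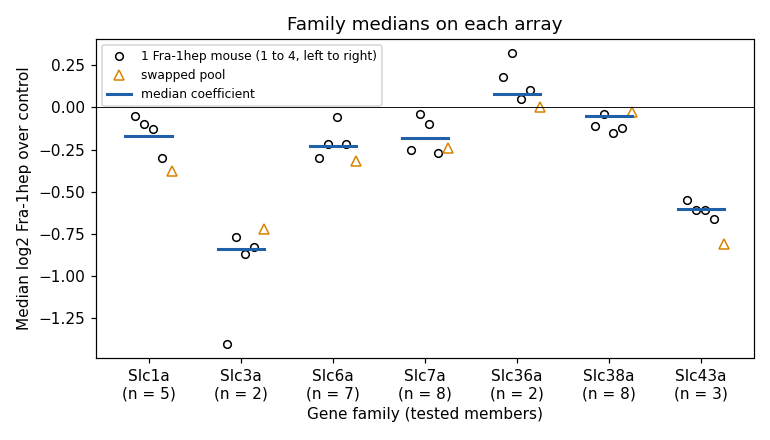
Median log2 Fra-1hep over control of the tested members of each family on each array. Circles are the 4 mice in order, triangles the swapped pool and bars the median coefficient; Slc3a and Slc43a have their points lowest, and mouse 1 stands below the others for Slc3a at -1.40.

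Of the heavy chains, 1 passed the test. Slc3a1, the heavy chain of the cystine and dibasic amino acid carrier, had log2 ratios of -2.74, -1.68, -1.85 and -1.79 in mice 1 to 4, with -1.68 on the swapped array. It was thus lower on all 5 arrays, with mouse 1 lowest, and fell by 1.85 (SE 0.19, 3.60-fold, adjusted p = 0.000907). Within the slide that held mice 2 to 4 and the swapped pool, without mouse 1, the value was -1.73. Since Slc3a1 and its partner Slc7a9 are known from kidney tubules, kidney tubule markers were examined. Of 10, 7 were not above background, among them Umod, Slc12a1 and Slc12a3. The other 3 were Slc34a1 (0.07), Slc22a6 (-0.12) and Aqp2 (-0.02), and 0 of them passed. Aqp2 was above background in both channels of all 5 arrays. A part of kidney RNA in the fall of Slc3a1 was not tested. Slc3a2, the widely expressed heavy chain also known as CD98 or 4F2hc, had ratios of -0.05, 0.15, 0.12 and 0.14 in the mice, with 0.24 on the swapped array. Its value of 0.17 ± 0.061 did not pass (adjusted p = 0.0898), but did without mouse 1 (0.19, adjusted p = 0.0485).

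Of the 3 tested light chains that pair with Slc3a2, 1 passed. Slc7a7, of the y+L system that exchanges cationic for neutral amino acids, was lower on all arrays, at -0.39, -0.21, -0.21 and -0.37 in mice 1 to 4, with -0.15 on the swapped array. Its fall of 0.22 (SE 0.062, adjusted p = 0.0381) no longer passed without mouse 1, mouse 3 or mouse 4. Nor did it pass with processed signals, without offset, or once the assumed spread of the control pool was added. Slc7a8, the LAT2 carrier of neutral amino acids (-0.33 ± 0.12), and Slc7a5, the LAT1 carrier of large neutral amino acids (0.05 ± 0.077), did not pass. Slc7a8 was called lower without mouse 2 (-0.39, adjusted p = 0.0123) and in the fit without a dye term (-0.32, adjusted p = 0.0339). The other Slc7a5 probe lay at -0.01. Slc7a6, Slc7a10 and Slc7a11 were not above background on any array.

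Of the cationic amino acid carriers, Slc7a2 and Slc7a1 fell. Slc7a2, which encodes the CAT2 carrier of arginine, lysine and ornithine in hepatocytes, had ratios of -0.63, -0.83, -0.67 and -0.72 in mice 1 to 4, with -0.99 on the swapped array. These values lie close together, and the fall of 0.85 (SE 0.059, 1.80-fold, adjusted p = 0.00019) had the smallest p of all members. Slc7a1, the widely expressed carrier CAT1, had ratios of -0.22, -0.28, -0.25 and -0.44 in the mice, with -0.59 on the swapped array. Its fall of 0.44 (SE 0.062, adjusted p = 0.00346) became -0.78 with the scanner's processed signals. Slc7a4, a relative of these carriers with no established transport activity, rose instead. Its ratios were 0.86, 0.77, 0.60 and 0.74 in mice 1 to 4, with 0.74 on the swapped array, and the rise of 0.74 ± 0.064 (1.67-fold, adjusted p = 0.000493) was the largest among members in the fit with a dye term. In the fit without that term Slc1a4 was at 0.75 against 0.74, and without the swapped array at 1.04 against 0.74. A second Slc7a4 probe was not above background on any array. Slc7a3, another cationic carrier, was higher in the 4 mice (0.53, 0.43, 0.28 and 0.28) and lower in the swapped pool (-0.66). It did not pass (-0.14 ± 0.067). Its probe was above background for Fra-1hep RNA on the 4 mouse arrays and for control RNA on the swapped array only. Each of these was the Cy5 channel, so detection followed the dye, and the gene counted as expressed through Cy5 alone. Alternatives called Slc7a3 in both directions: lower without the offset (-0.82, adjusted p = 0.0269) and higher without the swapped array (0.38, adjusted p = 0.00346).

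All 3 Slc43a genes fell. Slc43a1 and Slc43a2 encode the LAT3 and LAT4 carriers of branched-chain and other large neutral amino acids, and Slc43a3 a carrier of purine nucleobases. Slc43a3 had ratios of -0.55, -0.65, -0.79 and -0.88 in mice 1 to 4, with -1.36 on the swapped array, and fell by 1.04 (SE 0.073, 2.06-fold, adjusted p = 0.000207). It was lower on each array, most of all in the swapped pool, and without that array the value was -0.72. Slc43a1 had nearly the same ratio everywhere: -0.58, -0.61, -0.61 and -0.66 in the mice, with -0.59 on the swapped array. Its fall was 0.60 (SE 0.052, 1.51-fold, adjusted p = 0.000502). The value was -1.08 with the scanner's processed signals and -0.92 without the offset of the background correction. Slc43a2 had ratios of -0.37, -0.11, -0.12 and -0.31 in the mice, with -0.81 on the swapped array. Its fall of 0.52 (SE 0.070, adjusted p = 0.00287) passed also without the swapped array, at -0.23. The size for Slc43a2 therefore rested on the swapped pool, while the direction was that of all 5 arrays.

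Among Slc1a genes, the sodium-coupled glutamate carrier Slc1a2 (GLT-1) fell. In liver it is known from the hepatocytes around the central vein, which take up glutamate for glutamine synthesis. The probe that stood for the gene had ratios of -0.93, -0.33, -0.48 and -0.49 in mice 1 to 4, with -0.87 on the swapped array, a fall of 0.71 (SE 0.11, 1.64-fold, adjusted p = 0.0044). The 2 other probes, which carry another transcript accession, lay at -0.31 and -0.26, and the mean of all 3 at -0.43 also passed. Of 15 other tested genes of pericentral hepatocytes, 4 fell, 3 rose and 8 did not pass. The falls included those of Glul, glutamine synthetase (-1.05 ± 0.12, adjusted p = 0.00145), Oat, ornithine aminotransferase (-0.87 ± 0.14), and the carrier Slc13a3 (-0.54 ± 0.069). The 3 rises were those of Cyp7a1 (0.98 ± 0.24, adjusted p = 0.0237), Gulo (0.38 ± 0.078) and Cyp27a1 (0.19 ± 0.055). Cyp27a1 had -0.04 to 0.09 in the mice and 0.38 on the swapped array, so its rise rested on that array. Of 16 periportal genes, 3 fell, 5 rose and 8 did not pass. Medians were 0.08 for the pericentral and 0.03 for the periportal genes, with members of both lists on either side of 0, and 30.5% of all named genes passed.

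Slc1a5 and Slc1a4 encode ASCT2 and ASCT1, exchangers of alanine, serine and cysteine, of which ASCT2 also carries glutamine. Slc1a5 had ratios of -0.60, -0.45, -0.13 and -0.46 in mice 1 to 4, with -0.63 on the swapped array, and fell by 0.52 (SE 0.089, 1.44-fold, adjusted p = 0.00693). Its other probe lay at -0.20. Slc1a4 was called higher (0.33 ± 0.079, adjusted p = 0.0232), but its arrays went in opposite directions. All 4 mice were higher, at 1.11, 0.90, 0.90 and 1.23, and the swapped pool was lower, at -0.38. Its dye effect of 0.71 was the largest among members, and without the swapped array the value was 1.04. The call ended with processed signals (adjusted p = 0.0681) and once the assumed spread of the control pool was added (adjusted p = 0.0771). Slc1a6 (-0.17) and Slc1a7 (0.14), glutamate carriers known mostly from the nervous system, lay near background and did not pass. With processed signals Slc1a6 was called lower, at -0.91 (adjusted p = 0.0209). Slc1a1 and Slc1a3 were not above background on any array.

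**Figure D4:**
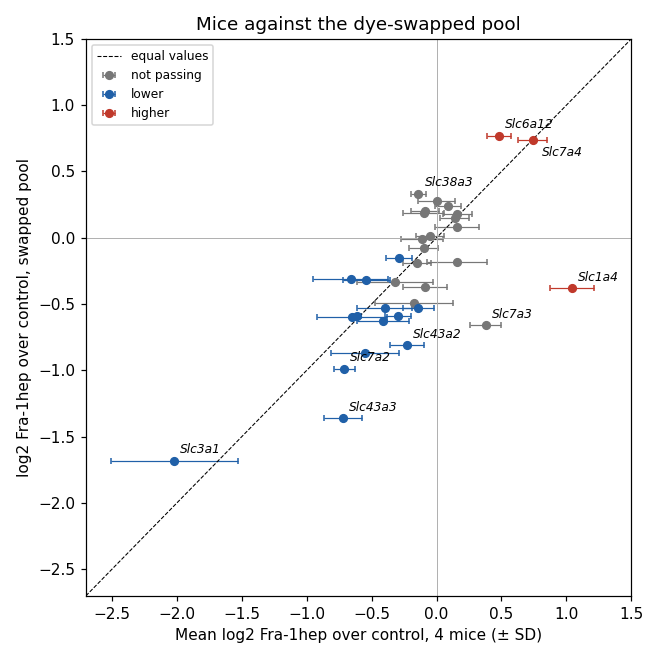
Log2 Fra-1hep over control of each tested member reported by name in the 4 mice (mean ± SD, horizontal axis) and in the dye-swapped pool (vertical axis), coloured by call. Most members lie near the dashed line of equal values; Slc1a4 and Slc7a3 lie at the lower right, above 0 in the mice and below 0 in the swapped pool.

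The plot of mice against the swapped pool shows how far the arrays of the 2 dye orientations differed. A dye effect of at least 0.25 was found for 4 of the 35 members (11.4%): Slc1a4 (0.71), Slc7a3 (0.52), Slc43a3 (0.32) and Slc43a2 (0.29). Over all named genes the share was 7.13%. With 1 swapped array, a dye effect and a deviation of that array or its RNA pool cannot be told apart.

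The Slc6a genes expressed in liver carry osmolytes and small metabolites, and 4 of the 7 passed. Slc6a12, the betaine and GABA carrier BGT1, rose: its ratios were 0.44, 0.45, 0.61 and 0.41 in mice 1 to 4, with 0.77 on the swapped array (0.62 ± 0.060, 1.54-fold, adjusted p = 0.000753). Its direct neighbour on the chromosome, Slc6a13, the GABA and taurine carrier GAT2, fell by 0.43 (SE 0.083, 1.35-fold, adjusted p = 0.0107). The ratios of Slc6a13 were -0.80, -0.44, -0.41 and -0.53 in the mice, with -0.32 on the swapped array, so that on each of the 5 arrays the neighbours lay on opposite sides of 0. Slc6a8, the creatine carrier, had ratios of -0.38, -1.0, -0.69 and -0.53 in the mice, with -0.60 on the swapped array. It fell by 0.63 (SE 0.11, 1.54-fold, adjusted p = 0.00751), with mouse 2 lowest. Slc6a6, the taurine carrier, had ratios of -0.44, -0.45, -0.11 and -0.60 in the mice, with -0.53 on the swapped array. Its fall of 0.47 (SE 0.091, adjusted p = 0.0113) did not pass with processed signals (adjusted p = 0.0534). The glycine carrier Slc6a9 (-0.23 ± 0.080, and -0.20 at its other probe) and Slc6a20a, a carrier of proline (-0.06), did not pass. Slc6a20a has a closely related neighbour, Slc6a20b, whose own probe was not above background, and which of them a probe reads is uncertain.

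Of the sodium-coupled neutral amino acid carriers of the Slc38a family, 2 of 8 (25%) fell, and the other 6 did not pass, so that 0 rose. This share of calls was the smallest among the families with 5 or more tested genes, and lay near the 30.5% of all named genes. Slc38a2, the adaptive system A carrier SNAT2, had ratios of -0.93, -0.77, -0.66 and -0.26 in mice 1 to 4, with -0.31 on the swapped array. Its fall of 0.48 (SE 0.12, 1.40-fold, adjusted p = 0.0234) no longer passed with processed signals (adjusted p = 0.0805) or without offset (adjusted p = 0.0508). Nor did it pass once the assumed spread of the control pool was added (adjusted p = 0.0777). Slc38a4, the system A carrier typical of liver (SNAT4), had ratios of -0.01, -0.19, -0.28 and -0.09 in the mice, with -0.53 on the swapped array. It fell by 0.34 (SE 0.067, 1.26-fold, adjusted p = 0.0122), but the value was -0.14 without the swapped array (adjusted p = 0.108) and -0.22 in a fit without a dye term (adjusted p = 0.0718). Slc38a3, the SNAT3 carrier of glutamine and histidine in hepatocytes, had ratios of -0.20, -0.07, -0.16 and -0.13 in the mice, with 0.33 on the swapped array (0.09 ± 0.055, not passing). Slc38a1, next to Slc38a2 on the chromosome, did not pass (-0.33 ± 0.12), with mouse 1 at -0.61 and the other mice between -0.07 and 0.04. It was called lower with the slide as a block, which is the fit without mouse 1 (-0.26, adjusted p = 0.0231), and with processed signals (-0.42, adjusted p = 0.0493). The lysosomal members Slc38a9, which takes part in arginine sensing (0.05), and Slc38a7, a glutamine carrier (-0.02), did not pass, nor did Slc38a6 (-0.09) and Slc38a10 (0.12). The proton-coupled carriers Slc36a1 (ratios of 0.17, 0.18, 0.02, 0.28 and, in the swapped pool, 0.18) and Slc36a4 (0.18, 0.46, 0.09, -0.08 and -0.18) did not pass either, at 0.17 ± 0.064 and -0.01 ± 0.097.

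Some of these carriers are also expressed by other liver cells, and markers of those cells differed between the groups. Beside the counts below, 18.5% of all named genes were called lower and 12.0% higher. In whole liver RNA, fewer cells of a type and less RNA per cell cannot be told apart. Of 14 tested macrophage and monocyte markers, 8 were lower and 0 higher. Among the 8, Itgam had 0.05 to 0.22 in the mice and -0.57 on the swapped array. The summed signal of the 14 markers, in arbitrary linear units, ran from 35200 to 64900 in the Fra-1hep channel. In the control channel it ran from 65100 to 77400. Of 12 stellate cell and fibroblast markers, 10 were lower and 0 higher, with summed signals of 18000 to 23700 against 38300 to 48200. Endothelial markers were lower in 5 of 12 cases and higher in 1, with sums of 18800 to 24000 against 24000 to 25800. Neutrophil markers were higher in 8 of 11 cases and lower in 0, with sums of 45400 to 81300 against 27900 to 34000. Cd68 and Ly6g had no named probe. Gpnmb was above background in the Fra-1hep channel on 1 array, and in the control channel Cxcr2 was on 1 and Mmp8 on 0. Of the other lists, 4 of 10 lymphocyte markers were lower and 0 higher, and 4 of 5 red blood cell markers were lower. Higher were 1 of 9 cholangiocyte markers and 3 of 5 exocrine pancreas markers. Of 6 neuron and glia markers, 2 were higher and 1 lower. That lower marker, Snap25, had 0.04 to 0.25 in the mice and -0.65 on the swapped array. Hba-a2, among the lower red blood cell markers, had -0.43 to 0.32 in the mice and -1.15 on the swapped array. The part of these cell types in the falls of Slc7a7, Slc1a5, Slc6a6, Slc6a8, Slc7a1 and Slc43a2 and in the other calls was not tested.

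Genes around the carriers were counted in the same fit, in which 30.5% of all named genes were called, 18.5% lower and 12.0% higher. Of 30 tested genes of the amino acid response, which the factor ATF4 drives when amino acids are short, 4 rose, 4 fell and 22 did not pass, with a median of -0.08. Asns, asparagine synthetase, stood far above the rest (5.87 ± 0.24, adjusted p = 2.61e-05), and the lipoprotein receptor gene Vldlr also rose (0.99 ± 0.063). Mars1, another of the 4 rises (0.19), had -0.14 to 0.03 in the mice and 0.44 on the swapped array. The stress genes Gdf15 (-2.10 ± 0.16) and Nupr1 (-1.31 ± 0.086) fell. Among carriers known from this response, Slc3a2 and Slc7a5 did not pass, and Slc7a11 was not above background. Slc7a1, Slc1a5 and Slc38a2 were lower. Slc1a4 was called higher (0.33), with its swapped pool on the other side of 0. Of 16 other tested amino acid and peptide carriers, 3 rose (Slc25a12, the aspartate and glutamate carrier of mitochondria, at 0.21; Slc25a29 at 0.32; Slc25a44, a mitochondrial carrier of branched-chain amino acids, at 0.26), 2 fell and 11 did not pass. The falls were in Slc15a3, a lysosomal peptide and histidine carrier (-0.55 ± 0.13), and Slc17a5 (-0.21). For Slc25a29 and Slc17a5 the mice and the swapped array did not lie on the same side: Slc25a29 had -0.06 to 0.20 in the mice and 0.62 on the swapped array, and Slc17a5 had 0.04 to 0.22 and -0.53. Of 19 genes for amino acid sensing and carrier trafficking, 4 fell and 0 rose: Sesn3 (-0.46), Lamtor1 (-0.32), Castor2 (-0.31) and Lamtor3 (-0.21).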

How the data were processed

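Liver RNA was measured on 5 Agilent 2-colour arrays. The authors extracted spot intensity values with Agilent Feature Extraction (version 10.7 in the submitters' processing notes; the headers name 10.7.3.1); RNA integrity exceeded 7.8 and 100 ng was labelled, per the labels' protocols. Flags and a log10 ratio (red over green) stand beside them, per the file headers. A further table deposited by the authors has log2 ratios, which matched the scanner ratios with slopes of 1.00 (mice) and -1.00 (swapped array), so its direction is Fra-1hep over control; it was not centred (column medians 0.13, 0.08, 0.04, 0.13 and -0.04).

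Median signals were corrected by normexp (offset 50) and loess within each array, with control spots at weight 0 and 177 non-uniform spots left out; 0 spots were saturated. Probes were named through a RefSeq table (26056 of 55681). The brightest probe with Cy3 or Cy5 signal well above background on 3 or more arrays stood for its gene. limma 3.58.1 (R 4.3.3) fitted genotype and dye over 5 arrays (3 residual and 4.02 prior degrees of freedom), checked on simulated data. The simulated noise was independent between arrays. That check could therefore not cover error shared through the control pool or a deviation of the swapped array. The number of arrays limits precision: the median standard error was 0.067, with the spread measured among the 4 mice and not for the swapped array. The control pool counted as 1 sample, and the pooled array may hold the same mice as the other 4. The array of mouse 1 lay on another slide, per the file headers.

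A member and a gene of the pathway lists are not reported by name here, though they stay in the fit and the counts. The members and lists were chosen with earlier results of these data known. Values on every array were to be given for members past the threshold with a change of at least 0.5, the 2 smallest p-values of a family without one, and 16 carriers fixed by name; the genes named from each pathway list are the up to 4 with the smallest p, and others named beside them were chosen after their values were seen. Alternatives covered signals, offset, deposited values, centring, dye term, array weights, filters, probes, an assumed control pool spread, slide and leaving out each array.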

Additional observations from a re-analysis of the deposited data

Results flagged for a closer look

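In mouse 1, Slc3a1 had a log2 ratio of -2.74, apart from the other 3 mice at -1.68 to -1.85; the gap was 0.843 of the whole range, past the critical value for 4 samples. In the same mouse, Slc3a2 at -0.05 stood apart from 0.12 to 0.15 (gap 0.841 of the range), and so did the Slc3a family median at -1.40, which is the mean of those 2 genes and no further evidence. Such gaps were looked for in 42 sets of 4 values, and chance marks about 1 in 20. The array of mouse 1 was the only one on its slide, so mouse and slide cannot be told apart.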

How the results depend on the processing

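Over 16 alternatives, between 12 and 15 members were lower and 2 to 4 higher, with 31 members expressed under the strictest filter. The 16 are not all distinct: deposited values nearly repeated processed signals, and slide as a block repeated the fit without mouse 1. The counts of alternatives below include both of each pair. Slc3a1, Slc43a1, Slc43a2, Slc43a3, Slc6a12, Slc6a13, Slc6a8, Slc7a1, Slc7a2, Slc7a4, Slc1a2 and Slc1a5 kept direction and call under each alternative. Calls ended under some for Slc7a7 (8), Slc38a2 (4), Slc1a4 (3), Slc38a4 (2) and Slc6a6 (2). Calls were gained under some for Slc38a1 (4), Slc1a6, Slc3a2, Slc7a3 and Slc7a8 (2 each), and for Slc6a4 once dim probes were kept (0.23, adjusted p = 0.0323). With the assumed spread of the control pool added, 14 of the 17 called members remained called, and named genes were then lower in 9.91% and higher in 6.03%. Family medians moved as follows. With processed signals or deposited values, Slc1a was at -0.73 and Slc43a at -1.05. Without offset, Slc1a was at -0.47, Slc7a at -0.33 and Slc43a at -0.92. Without a filter on dim probes, Slc6a was at -0.02 and Slc7a at -0.01, since genes below the detection limit enter. With both channels above background on all arrays, Slc1a was at -0.52 and Slc6a at -0.33. Without the swapped array, Slc6a was at -0.11 and Slc38a at -0.12, and 9 amino acid response genes were lower. The cause was not tested for these shifts, other than that of the filters. Members that did not pass changed sign: Slc36a4 with processed signals or deposited values (0.04), median centring (0), the swapped array turned (0.10), without mouse 3 (0) or 4 (0.03; -0.06 to 0.03 when each mouse was left out) and without the swapped array (0.16); Slc38a3 with the swapped array turned (-0.05) and without it (-0.14). Median centring moved an array by at most 0.02. Slide as a block gave the same values as leaving out mouse 1, as that array was alone on its slide. No paired analysis was possible because the mice were each set against 1 control pool and the groups share no replicate numbers. Probes near background limit Slc1a6, Slc1a7 and Slc7a3.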

Other observations

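Over the 35 tested members, mouse 1, whose array lay alone on its slide, was the lowest of the 4 mice for 13 and the highest for 11, against 30.5% lowest and 28.1% highest over all named genes. Among the 14 lower members, mouse 1 was the lowest of the 4 mice for 7 and the highest for 6, against 35.7% lowest and 19.4% highest among all named genes that were lower. Mouse 4 was lowest for 4 of the 14 members, mouse 2 for 2 and mouse 3 for 1.

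Genes of these families that lie next to each other did not always share their expression in liver. Slc36a1 was expressed beside the silent Slc36a2 and Slc36a3, and Slc6a20a beside the silent Slc6a20b. Slc7a6os was expressed (0.14 ± 0.071, not passing), while its neighbour Slc7a6 was not above background on any array. In the run of Slc38a1, Slc38a2 and Slc38a4, all 3 genes were expressed and had values below 0, of which those of Slc38a2 and Slc38a4 passed.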
